A study of Mus musculus with 9 samples.

Results

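The heavy chain of an antibody carries a variable region whose main part is encoded by an Ighv segment, and RNA of these segments was measured here in immune cells sorted from mouse melanomas. The set held every gene whose symbol starts with Ighv in the mouse GRCm38 annotation, except Ighv11-2 and Ighv12-3, which the rule left out. It came to 113 of the 22136 genes to which the deposited counts were summed. The rule reads gene symbols only. All 113 lie on chromosome 12 between positions 113578504 and 116000461 (GRCm38), a span of 2.42 Mb. The annotation gives 111 of them the type IG_V_gene and 2, Ighv1-13 and Ighv5-8, the type IG_LV_gene. Those 2 are also the only members annotated on the plus strand, the other 111 lying on the minus strand. A further 70 Ighv symbols of the annotation are pseudogenes with no transcript in the files and were not analysed here.

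A B cell builds its heavy chain gene by joining 1 Ighv segment to a D and a J segment, and each clone then keeps that choice. The joined exon is spliced to a constant region, Ighm for antibody of the IgM class. Plasma cells, the antibody-secreting end of the B lineage, hold far more immunoglobulin RNA per cell than resting B cells, so a few plasma cell clones can supply much of the Ighv RNA of a bulk sample.

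YUMM 2.1 is a mouse melanoma cell line. It was injected under the skin of immunocompetent C57BL/6J mice, and tumours that had reached 20 to 50 mm3 were treated with an isotype control antibody, called IgG here, or with an antibody named anti-B7-H3 or anti-PD1, after the checkpoint protein that it binds. Cells carrying CD45, the surface protein shared by leukocytes, were sorted from each tumour and their RNA was amplified and sequenced in bulk, with 3 libraries per group and 9 in all. The host strain, the tumour line and the sort were the same in the 3 groups, no genetic change of the host is given, and the labels give no age, dose or time of collection. The labels number the libraries 1 to 3 within each group but do not say that each came from its own mouse, so p-values measure the spread between these libraries, which may be technical.

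Total counts ran from 14487012 to 31533106 per library, so that 3 counts, the limit that a count of 0 allows, stood for 0.0951 to 0.207 CPM (counts per 1000000 counts of the library). These limits cover counting error only. Of 13178 genes tested, IgG 2, IgG 3 and anti-PD1 3 had 1896, 822 and 1248 at 0 and the other libraries 224 to 308, so results on the number of segments are given with these libraries named. B lineage RNA was looked for by its markers, and all 18 B cell and all 13 plasma cell markers had counts. The B cell genes Ebf1 and Cr2, however, were at 0 in all 3 IgG libraries. These counts do not measure the purity of the sort. The summed level of 10 macrophage markers was 134 to 300.4 CPM in IgG, 1694 to 2333 in anti-B7-H3 and 1186 to 1748 in anti-PD1, with 7 of the 10 higher by edgeR in each treated group. The summed level of 9 T cell markers was 6328 to 8413 CPM in IgG, 4702 to 5755 in anti-B7-H3 and 4610 to 6217 in anti-PD1, below all IgG libraries in both treated groups, with 0 of the 9 called by edgeR in either comparison. The part of these differences in the Ighv levels below was not tested, and in bulk RNA fewer cells of a type cannot be told apart from less RNA per cell.

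Each library had a leading segment, the member with the largest share of its Ighv counts, and 7 segments took that place in the 9 libraries. Their spliced coding sequences are shown because results on dominance turn on them and because they show how far apart the competing segments are. They are transcript sequences of GENCODE M21 (GRCm38, all on the minus strand of chromosome 12), 5′ to 3′, with the TGT codon of the conserved cysteine near the segment's end in capitals. Each is shown from 95 codons before that codon to its last base, which leaves out the leader and in some also the first codons after it. Ighv3-6 spans 114288152 to 114288582, Ighv1-55 115208095 to 115208591, Ighv8-5 115067560 to 115068002, Ighv7-1 113896408 to 113896946, Ighv4-1 113948282 to 113948796, Ighv9-3 114140692 to 114141122 and Ighv1-64 115507545 to 115508031. These spans cover the whole gene, introns included.
Ighv3-6: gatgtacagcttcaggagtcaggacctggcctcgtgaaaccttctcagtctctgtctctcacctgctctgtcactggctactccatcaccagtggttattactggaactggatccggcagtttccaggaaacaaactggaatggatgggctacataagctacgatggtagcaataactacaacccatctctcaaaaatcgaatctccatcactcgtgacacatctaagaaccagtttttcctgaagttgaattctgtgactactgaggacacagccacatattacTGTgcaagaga
Ighv1-55: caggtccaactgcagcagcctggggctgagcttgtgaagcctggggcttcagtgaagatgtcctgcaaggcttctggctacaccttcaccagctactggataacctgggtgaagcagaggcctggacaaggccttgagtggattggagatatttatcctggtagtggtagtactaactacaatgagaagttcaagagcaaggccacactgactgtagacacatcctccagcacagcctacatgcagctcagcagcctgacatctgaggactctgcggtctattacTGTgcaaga
Ighv8-5: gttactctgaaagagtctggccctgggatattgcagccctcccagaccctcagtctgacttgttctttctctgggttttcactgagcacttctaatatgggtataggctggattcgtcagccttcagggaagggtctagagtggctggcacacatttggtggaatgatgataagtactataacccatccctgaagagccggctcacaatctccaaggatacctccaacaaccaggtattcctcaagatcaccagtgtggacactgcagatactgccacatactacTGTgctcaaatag
Ighv7-1: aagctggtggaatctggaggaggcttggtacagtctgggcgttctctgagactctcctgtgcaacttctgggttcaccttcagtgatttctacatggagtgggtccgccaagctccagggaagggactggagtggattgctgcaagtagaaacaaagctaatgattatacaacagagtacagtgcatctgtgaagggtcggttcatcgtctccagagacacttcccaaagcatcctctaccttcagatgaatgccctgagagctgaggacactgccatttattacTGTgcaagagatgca
Ighv4-1: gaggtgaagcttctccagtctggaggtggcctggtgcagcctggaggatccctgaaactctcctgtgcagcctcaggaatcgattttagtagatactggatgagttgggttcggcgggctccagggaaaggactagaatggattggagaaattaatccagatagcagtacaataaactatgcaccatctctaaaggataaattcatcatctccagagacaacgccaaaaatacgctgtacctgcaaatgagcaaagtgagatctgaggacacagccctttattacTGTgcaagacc
Ighv9-3: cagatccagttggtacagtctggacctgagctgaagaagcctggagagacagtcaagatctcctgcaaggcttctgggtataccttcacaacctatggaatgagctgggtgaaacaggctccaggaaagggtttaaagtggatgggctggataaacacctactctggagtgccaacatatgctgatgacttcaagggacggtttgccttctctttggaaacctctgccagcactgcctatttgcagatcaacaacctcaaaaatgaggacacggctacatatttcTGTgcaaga
Ighv1-64: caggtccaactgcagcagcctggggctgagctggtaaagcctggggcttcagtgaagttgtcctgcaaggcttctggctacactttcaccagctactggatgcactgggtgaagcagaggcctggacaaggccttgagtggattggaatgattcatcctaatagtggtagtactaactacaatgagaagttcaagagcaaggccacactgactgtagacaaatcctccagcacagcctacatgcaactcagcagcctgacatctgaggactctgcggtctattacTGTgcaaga

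Between pairs of the 7 whole coding sequences the identity ran from 56.3% to 94.9% with a median of 58.9%, and the closest pair was Ighv1-55 and Ighv1-64 of the large Ighv1 family. Few bases follow the cysteine codon in any of them, since the rest of the antigen-binding loop comes from the D and J segments.

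Ighv RNA as a whole was most abundant after anti-PD1. The summed level was 760, 839 and 206 CPM in IgG 1 to 3, 759, 1216 and 1407 CPM in anti-B7-H3 1 to 3, and 3312, 2941 and 1526 CPM in anti-PD1 1 to 3. All 3 anti-PD1 libraries lay above all others, while anti-B7-H3 1 lay inside the range of the controls. The means were 601 ± 345 CPM in IgG, 1127 ± 333 in anti-B7-H3 and 2593 ± 942 in anti-PD1 (SD, n = 3 per group). The anti-PD1 mean was 4.31-fold and the anti-B7-H3 mean 1.87-fold that of IgG, and the anti-B7-H3 mean was 0.435 of the anti-PD1 mean. As differences of mean log2 CPM these were 2.28, 1.10 and -1.17. IgG 3, the lowest library, weighed on the first 2 values: without it they were 1.62 and 0.45. Leaving out IgG 2 and anti-PD1 3 together, a choice made after seeing the data, gave 2.98 for anti-PD1 against IgG. The total is a sum over the chosen members and was given no p-value. By the deposited TPM, which divide by transcript length, the order of the means was the same, at 1707 ± 1018, 3409 ± 1532 and 7505 ± 3098, but anti-B7-H3 and anti-PD1 then overlapped.

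**Figure D1:**
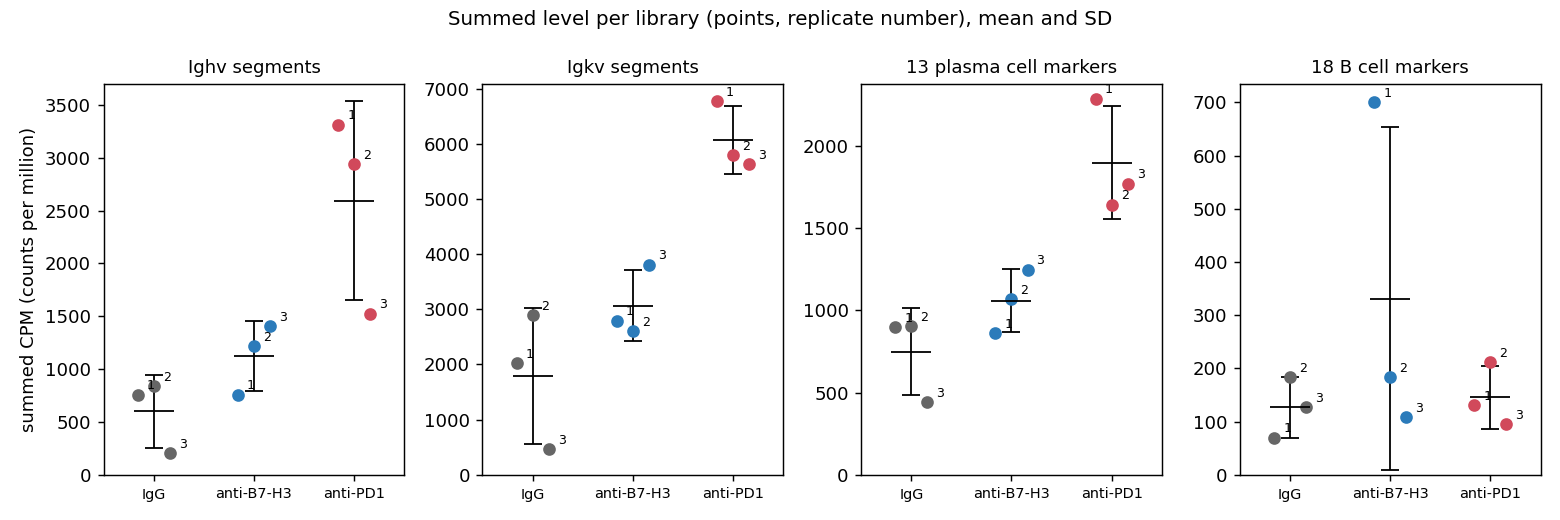
Summed CPM per library (points, numbered by replicate) with group mean and SD (bars) for Ighv segments, Igkv segments, 13 plasma cell markers and 18 B cell markers; each panel has its own linear axis from 0. The 3 anti-PD1 libraries lie above all IgG libraries in the first 3 panels but not in the B cell panel, where anti-B7-H3 1 stands highest at 701 CPM.

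The kappa light chain segments and Ighm were ordered like the Ighv total by their group means, but other constant genes varied by library. Ighd, Igha, Ighg1 and Ighg3 had their highest mean in anti-B7-H3, but for Ighd, Ighg1 and Ighg3 it rested mostly on 1 library. In anti-B7-H3 1 to 3, Ighd stood at 134, 15.4 and 10.5 CPM. Ighg1 stood there at 57.0, 403 and 1.05 CPM and Ighg3 at 0.398, 1.06 and 531. The mean of Ighg2b was highest in anti-PD1, with 80.7, 223 and 0 CPM in libraries 1 to 3. The 100 Igkv genes, variable segments of the kappa light chain, summed to 1794 ± 1230, 3068 ± 649 and 6066 ± 618 CPM in IgG, anti-B7-H3 and anti-PD1. Ighm, the IgM constant gene, stood at 5487, 5864 and 2241 CPM in IgG, 6196, 7549 and 9238 in anti-B7-H3 and 21687, 17223 and 13499.98 in anti-PD1. It rose with anti-PD1 against IgG by a log2 change of 2.09 ± 0.33 (SE, edgeR adjusted p = 0.00813), while its change with anti-B7-H3, 0.88 ± 0.31, did not pass (edgeR adjusted p = 0.415). Of the 6 heavy chain constant genes tested, Ighm alone was called. Ighm gave 91.0% to 99.9% of the counts on heavy chain constant genes in every library. The IgA gene Igha was at 214 and 373 CPM in anti-B7-H3 1 and 3 and at most 21.2 in the other 7 libraries, so IgA RNA was high in 2 of the 3 anti-B7-H3 libraries. Its log2 change against IgG was 4.33 ± 1.74 (edgeR adjusted p = 0.544).

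Set against the constant genes, the groups' Ighv levels overlapped. There were 12.1 ± 2.89 Ighv counts per 100 constant gene counts in IgG, 13.5 ± 1.91 in anti-B7-H3 and 14.4 ± 2.81 in anti-PD1, and the log2 differences became 0.26 for anti-PD1 and 0.18 for anti-B7-H3 against IgG and -0.08 between the treatments.

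Markers of plasma cells, but not those of B cells, were ordered like the Ighv total. The 13 plasma cell markers summed to 441 to 902 CPM in IgG, 862 to 1245 in anti-B7-H3 and 1640 to 2284 in anti-PD1. Against IgG, 5 of the 13 rose with anti-PD1 and 0 with anti-B7-H3 (edgeR adjusted p under 0.05). Creld2, a chaperone of the secretory pathway, went from 90.4, 79.6 and 67.4 to 233, 179 and 143 CPM (edgeR adjusted p = 0.00992). Irf4, a transcription factor that plasma cells need, went from 11.2, 13.9 and 3.61 to 37.4, 30.5 and 37.0 CPM (edgeR adjusted p = 0.0307). Jchain, which joins IgM and IgA into polymers, went from 265, 398 and 90.9 to 972, 711 and 823 CPM (edgeR adjusted p = 0.0453). The 18 B cell markers summed to 69.5 to 184 CPM in IgG, 109 to 701 in anti-B7-H3 and 94.8 to 211 in anti-PD1, with 0 of 18 called in any comparison. Part of the plasma cell list, Irf4 among it, is also expressed by activated T cells, whose part in these rises was not tested. Of the 9 T cell markers 0 had a positive log2 change with anti-PD1, but these markers do not measure activation. Per CPM of plasma cell markers there were 0.848, 0.929 and 0.466 CPM of Ighv in IgG, 0.880, 1.14 and 1.13 in anti-B7-H3 and 1.45, 1.79 and 0.864 in anti-PD1. On this scale anti-PD1 overlapped with IgG through anti-PD1 3, and the log2 difference was 0.87 in place of 2.28 for anti-PD1 against IgG, 0.54 in place of 1.10 for anti-B7-H3 against IgG and -0.33 in place of -1.17 between the treatments.

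Few segments took most of the Ighv counts of every library, on average fewest in IgG. A segment was called present at 10 counts or more. This held for 28, 23 and 20 segments in IgG 1 to 3, for 60, 48 and 38 in anti-B7-H3 and for 47, 53 and 30 in anti-PD1. All 3 anti-B7-H3 and all 3 anti-PD1 libraries were above the IgG libraries. The Ighv counts behind these numbers differed, at 14045, 12148 and 4208 in IgG, 11455, 35687 and 44374 in anti-B7-H3 and 99762, 82705 and 37026 in anti-PD1, and the libraries with many genes at 0 were the lower ones of their groups. At an equal draw of 4208 Ighv counts per library, the expected number of segments with at least 1 count was 42.0, 30.4 and 39.0 in IgG, 79.2, 54.9 and 39.9 in anti-B7-H3 and 45.8, 48.1 and 31.0 in anti-PD1. At this equal depth the groups overlapped, and anti-B7-H3 1 stood out with the most segments. That library also had the highest B cell marker sum, 701 CPM, and 134 CPM of Ighd, the IgD constant gene that naive B cells express. The link between these values was not tested.

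The spread of counts over segments was also measured by the effective number, the inverse of the summed squared shares, which is the number of equally abundant segments that would give the same concentration. It was 9.87, 7.94 and 8.33 in IgG, 9.05, 15.2 and 15.2 in anti-B7-H3 and 12.02, 19.9 and 12.4 in anti-PD1. The means were 8.71 ± 1.02, 13.1 ± 3.55 and 14.7 ± 4.43 (SD, n = 3). All anti-PD1 libraries lay above all IgG libraries, and anti-B7-H3 1 lay among the controls. In the IgG libraries 3 or 4 segments were enough to hold 50% of the Ighv counts, against 4 to 7 in anti-B7-H3 and 5 to 8 in anti-PD1. For 90% the numbers were 16, 9 and 9 in IgG 1 to 3, 17 to 25 in anti-B7-H3 and 15 to 23 in anti-PD1. IgG 2 and IgG 3, both with many genes at 0, had the lowest effective numbers of all libraries. IgG 1 had a higher effective number than anti-B7-H3 1, and for 90% it needed more segments than anti-PD1 3, at 16 against 15. The 3 leading segments held 45.8% to 52.9% in IgG, 32.3% to 44.6% in anti-B7-H3 and 28.5% to 41.8% in anti-PD1. These indices summarise all members and carry no p-value.

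**Figure D2:**
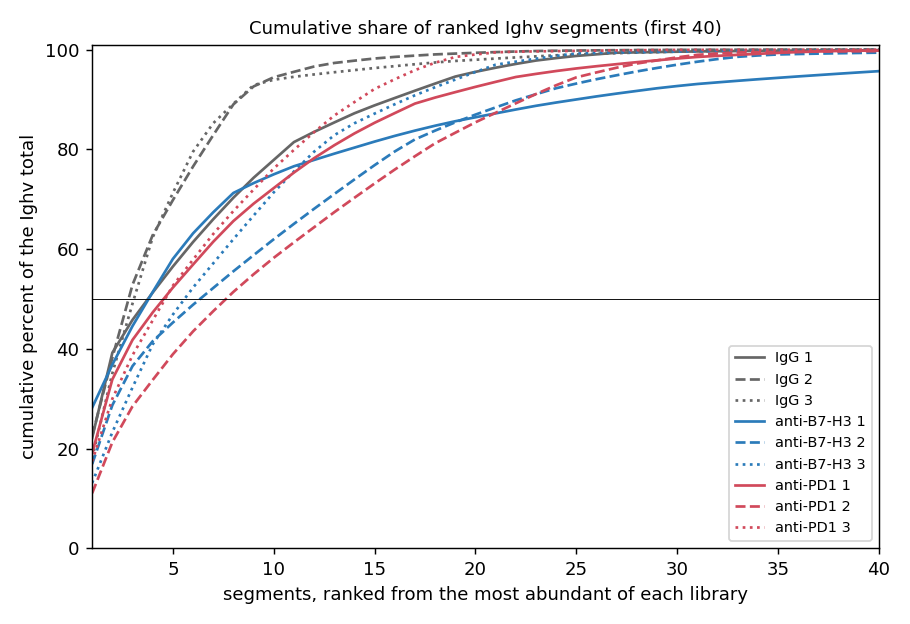
Cumulative percent of the Ighv total (vertical axis) against the number of segments, ranked from the most abundant of each library (horizontal axis, first 40), with 1 line per library, grey for IgG, blue for anti-B7-H3 and red for anti-PD1; the thin line marks 50%. IgG 2 and IgG 3 climb fastest, reaching 90% with 9 segments, and anti-B7-H3 1 starts steeply but flattens, needing 25.

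Which segment led differed from library to library, also within a group. In IgG the leaders were Ighv3-6 with 22.2% of the Ighv counts of IgG 1, Ighv1-55 with 22.5% of IgG 2 and Ighv8-5 with 18.1% of IgG 3. In anti-B7-H3, Ighv7-1 led libraries 1 and 2 with 28.2% and 16.9%, and Ighv4-1 led library 3 with 13.1%. In anti-PD1 they were Ighv9-3 with 19.1%, Ighv1-64 with 11.03% and Ighv7-1 with 17.4%. Only Ighv7-1 led more than 1 library, and it did so in both treated groups.

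A leader of 1 library could be nearly missing from the next. Ighv3-6 stood at 168 CPM in IgG 1, 0.276 in IgG 2 and 0 in IgG 3, at 5.87, 0.408 and 21.5 in anti-B7-H3 and at 489.6, 0.789 and 0.701 in anti-PD1. Its 2 high libraries were thus in different groups. Ighv1-55 stood at 0.534, 189 and 0 CPM in IgG, 65.5, 34.8 and 33.7 in anti-B7-H3 and 6.63, 46.5 and 78.5 in anti-PD1. It was spread over both treated groups and concentrated in 1 control. Ighv8-5 stood at 14.02, 0.0717 and 37.2 CPM in IgG, at 0, 35.6 and 0 in anti-B7-H3 and at 0, 212 and 56.9 in anti-PD1. Ighv9-3 ran from 0 in IgG 3 to 632 CPM in anti-PD1 1, and Ighv1-64 from 0 in IgG 2 to 324 CPM in anti-PD1 2 with 0.0415 in anti-PD1 3. None of these 5 had groups that stood apart in any comparison.

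Other segments among the 3 largest of a library behaved the same way. Ighv1-82 stood at 132 CPM in IgG 2 and 63.3 in anti-PD1 1 but at 17.2 or less in the other 7 libraries. Ighv1-81 was at 27.2 CPM in IgG 1, 58.7 in anti-B7-H3 1 and 89.0 in anti-PD1 2, 1 library of each group, and at 0.871 or less elsewhere. Ighv8-8 reached 192 CPM in anti-PD1 3 with 0.476 in anti-PD1 2. Ighv6-6 ran from 0 in anti-PD1 3 to 138 CPM in anti-PD1 1 within 1 group. Of the summed shares of a named segment over the 9 libraries, the top library held from 25.7% for Ighv1-53 to 94.1% for Ighv1-77.

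**Figure D3:**
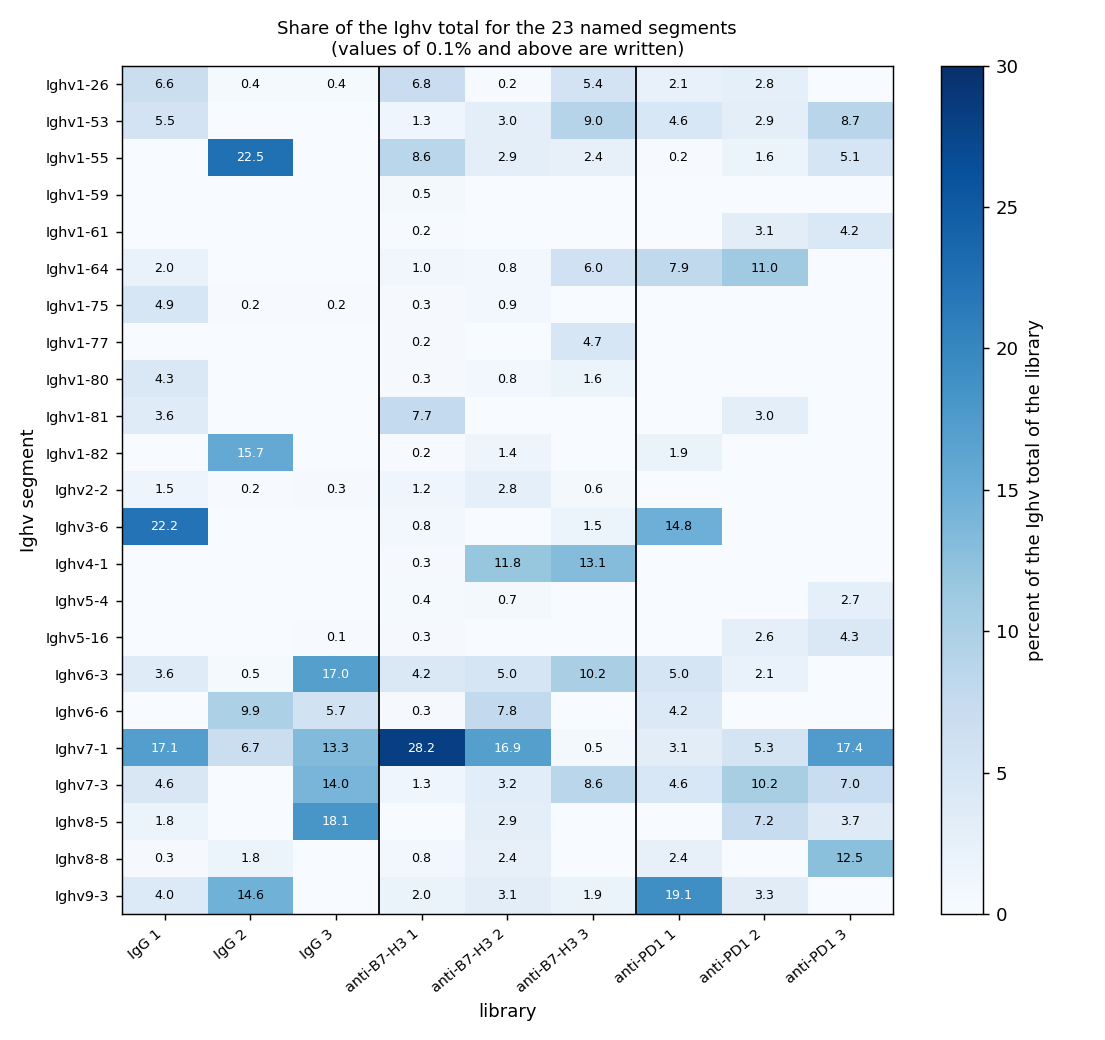
Percent of each library's Ighv total (colour and numbers, values of 0.1% and above written) for the 23 named segments (rows) in the 9 libraries (columns, groups parted by lines). Dark cells are scattered over rows and groups, and Ighv7-1 is the row with the most cells above 10%.

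A small core of segments recurred. Of the 113 members, 28 reached 10 counts in no library and 9 of these had no count at all, while 2, Ighv2-2 and Ighv7-1, reached it in all 9. A further 4, Ighv1-26, Ighv6-3, Ighv7-3 and Ighv9-3, did so in 8. Ighv2-2 was only just above 10 counts in IgG 3 and anti-PD1 3, and its counts are uncertain because of close copies. The 16 segments present in at least 7 libraries held 37.2% to 73.4% of the Ighv counts of a library, and the 23 present in only 1 or 2 libraries held 0.323% to 13.8%. Abundant segments pass a cut on counts in more libraries by construction, so these shares are only a description. By group, 49 segments were present in some IgG library and 4 in all 3, against 72 and 26 in anti-B7-H3 and 70 and 13 in anti-PD1. These numbers were not set to an equal depth. Ighv counts per library were 4208 to 14045 in IgG, 11455 to 44374 in anti-B7-H3 and 37026 to 99762 in anti-PD1. IgG 2, IgG 3 and anti-PD1 3 were the libraries with many genes at 0.

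Ighv7-1 had the highest mean share, 12.1% over the 9 libraries. It stood at 130, 56.5 and 27.3 CPM in IgG, 214, 205 and 6.95 in anti-B7-H3 and 104, 155 and 266 in anti-PD1. The groups overlapped, and its log2 change against IgG was 1.17 ± 1.11 under B7-H3 and 1.43 ± 1.12 under PD1 blockade (edgeR adjusted p = 0.864 and 0.740). Its share of the Ighv total was 17.1%, 6.74% and 13.3% in IgG and 3.13%, 5.28% and 17.4% in anti-PD1. In anti-PD1 1 and 2 it took less of a larger total.

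Its neighbour in the family, Ighv7-3, stood at 34.7, 0 and 28.7 CPM in IgG, 9.61, 38.9 and 121 in anti-B7-H3 and 153, 300.6 and 106 in anti-PD1. All anti-PD1 libraries were above all IgG libraries, at a log2 change of 3.20 ± 1.61 (edgeR adjusted p = 0.547). Ighv6-3 stood at 27.2, 3.87 and 34.9 CPM in IgG, 32.1, 60.5 and 143 in anti-B7-H3 and 165, 61.5 and 0.0824 in anti-PD1. It was nearly absent from anti-PD1 3 alone, and its log2 changes of 1.84 ± 1.75 and 1.83 ± 1.75 against IgG were close in the 2 treated groups. Ighv1-26 stood at 50.1, 3.66 and 0.782 CPM in IgG, 51.8, 2.42 and 76.3 in anti-B7-H3 and 70.9, 82.2 and 0 in anti-PD1, so that each group held a high and a low library.

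The 15 families, named by the first number of the symbol and grouped by sequence likeness, took unequal parts. Ighv1, with 54 of the 113 members, gave 36.2%, 48.5% and 13.4% of the Ighv counts in IgG, 48.8%, 29.4% and 52.5% in anti-B7-H3 and 38.8%, 55.3% and 33.0% in anti-PD1. Its median of 38.8% lay below its 47.8% of the members. Ighv7, with 4 members, gave 6.74% to 29.5% at a median of 20.1%, above its 3.54% of the members. The families Ighv3, Ighv6, Ighv9 and Ighv5 each ran from below 0.1% in some library to between 17.2% and 22.7% in another. Ighv4 has the single member Ighv4-1, and gave 11.8% and 13.1% in anti-B7-H3 2 and 3 and at most 0.288% elsewhere. Ighv11, Ighv13, Ighv15 and Ighv16, with 1 member each in this set, never passed 1.21%. The Ighv11 value does not include Ighv11-2, which the rule left out and which stood at 32.5 CPM in IgG 3 to 884 CPM in anti-PD1 3.

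**Figure D4:**
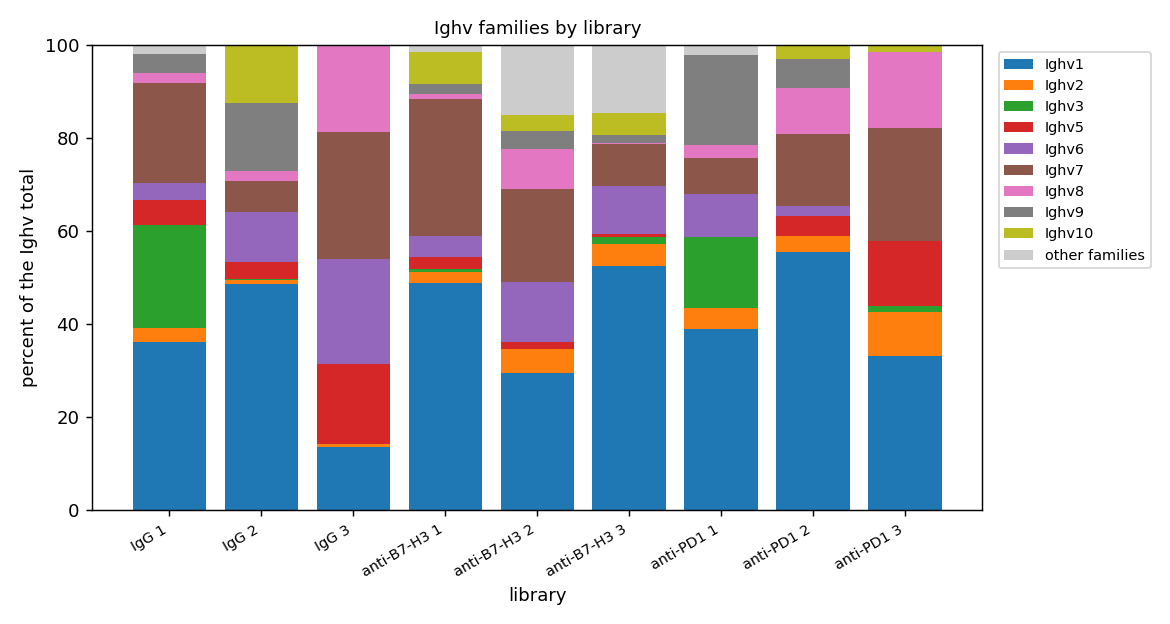
Percent of the Ighv total by family (stacked colours, 9 families and the rest) in each of the 9 libraries. Ighv1 (blue) is the largest band in 8 libraries and shrinks to 13.4% in IgG 3, where Ighv7 and Ighv6 hold 27.3% and 22.7%; the grey band on top of anti-B7-H3 2 and 3 is mostly Ighv4-1.

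Position in the locus did not single out a stretch. The 37 members nearest the D segments (113578504 to 114254051) held 26.0% to 48.1% of the Ighv counts of a library. The middle 38 (114262652 to 114991580) held 14.9% to 45.1% and the distal 38 (115024026 to 116000461) 22.4% to 48.8%. Each of the 3 stretches held the largest part in some libraries.

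On average, libraries of a group were not more alike in segment use than libraries of different groups. The overlap of 2 libraries, the sum over segments of the smaller of the 2 shares, averaged 27.6% in the 9 pairs within a group (13.2% to 43.1%) and 30.5% in the 27 pairs across groups (13.1% to 44.1%). Within IgG it averaged 17.99%, within anti-B7-H3 36.1% and within anti-PD1 28.7%. The same measure averaged 39.96% for Igkv segments and 84.4% for the tested genes outside the immunoglobulin loci. These pairs share libraries and are described without a test. For a tested member, the SD within a group was 136% of the group mean at the median, against 31.0% for all tested genes and 33.8% for genes at the members' levels. Single segments thus differed between replicates far more than other genes of like abundance.

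Single segments were tested with edgeR on the whole table, with p-values adjusted over all 13178 tested genes. Of the 113 members, 62 passed the filter on low counts. The other 51 were too low or in too few libraries to be tested. A member that passed only because it was high in 1 group had to differ, so counts over the 62 are a description. At the members' spread, the median standard error of a log2 change was 2.64, 2.78 and 2.46 in the 3 comparisons, against 0.40 for all genes. These standard errors were worked back from the edgeR test and are approximate, above all where a group is at 0.

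Anti-B7-H3 against IgG asked what B7-H3 blockade changed. No member passed (0 of 62 at an edgeR adjusted p under 0.05), where 0.85% of all genes did. The smallest adjusted p of a member was 0.229. At an unadjusted p under 0.05 there were 5 of 62, or 8.06%, against 8.81% of all genes, and DESeq2 called 5 (2.99% of all genes). Relative to the Ighv total taken as library size, 2 members passed (0.129% of all genes). The log2 change was positive for 46 of 62, or 74.2% (52.1% of all genes). Its median was 2.05 (1.94 with the 7 members that were at 0 in a group set to their bound), against 0.02 for all genes. With the filter rerun, that median ran from 0.97 over 69 members without anti-B7-H3 1 to 4.54 over 73 without IgG 1. All anti-B7-H3 libraries were above all IgG libraries for 8 members, or 12.9% (9.96% of all genes), and below for 0 (5.48%).

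The segment with the smallest p was Ighv4-1. It stood at 0, 0.483 and 0 CPM in IgG and at 2.19, 144 and 184 in anti-B7-H3. The groups did not overlap, but anti-B7-H3 1 was far below the other 2. Summed over the group there were 10064 counts against 7, and the log2 change was 9.63 ± 2.34 (edgeR adjusted p = 0.229, and DESeq2 adjusted p = 0.00377). Ighv1-77 was at 0 in all 3 IgG libraries and at 1.81, 0.338 and 66.5 CPM in anti-B7-H3, at least 500.07-fold higher than the 3 counts that 0 over the IgG group allows. Of its 2133 anti-B7-H3 counts, 2096 came from library 3 (edgeR adjusted p = 0.393, and DESeq2 adjusted p = 0.0494). Ighv1-59 was at 0 in IgG and in anti-B7-H3 2 and 3, and its whole anti-B7-H3 signal was 61 counts of library 1, at least 14.3-fold higher (edgeR adjusted p = 0.549). DESeq2 called Ighv1-59 at an adjusted p of 1.58e-09, a call that rests on that 1 library. Ighv5-4 stood at 0, 0 and 0.199 CPM in IgG and at 3.12, 8.02 and 0.127 in anti-B7-H3, with overlapping groups (log2 change 5.66 ± 2.43, edgeR adjusted p = 0.549, and DESeq2 adjusted p = 0.216).

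Anti-PD1 against IgG asked the same of PD1 blockade, with the same 3 control libraries. Again 0 of 62 members passed, against 1.74% of all genes, and the smallest edgeR adjusted p was 0.0992. At an unadjusted p under 0.05 there were 13, or 20.97%, against 10.9% of all genes, 10 of them positive, and DESeq2 called 10, 7 higher and 3 lower (5.01% of all genes). The log2 change was positive for 50 of 62, or 80.6% (47.2% of all genes). Its median was 2.72 (2.61 with 9 members at their bound), against -0.04 for all genes. With the filter rerun, that median ran from 2.28 over 70 members without anti-PD1 2 to 5.45 over 73 without IgG 1. All anti-PD1 libraries were above all IgG libraries for 5 members, or 8.06% (10% of all genes), and below for 3, or 4.84% (6.53%). Relative to the Ighv total taken as library size, 14 members passed, 8 higher and 6 lower, where 72.5% of all genes did. The calls depended on single libraries: leaving out IgG 1 gave 1 call, Ighv1-53, leaving out anti-PD1 1 gave Ighv5-16, and leaving out anti-PD1 2 gave Ighv2-4, which then passed the filter.

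Ighv5-16 and Ighv1-61 were high in the same 2 anti-PD1 libraries. Ighv5-16 stood at 0, 0 and 0.244 CPM in IgG and at 0.863, 76.3 and 65.7 in anti-PD1. The lowest anti-PD1 library was above the highest control, and the log2 change was 9.02 ± 2.13 (edgeR adjusted p = 0.104, and 0.0235 without anti-PD1 1). Ighv1-61 stood at 0.114, 0 and 0 CPM in IgG and at 0.225, 91.2 and 64.6 in anti-PD1. It had 2 counts in IgG and 4139 in anti-PD1, which per library size is 1340.5 to 1, with 95% counting limits of 371 and 11072 (edgeR adjusted p = 0.227). Ighv1-53, without counts in IgG 2 and 3, stood at 41.6 CPM in IgG 1 and at 152, 84.3 and 133 in anti-PD1 (log2 change 3.29 ± 2.11, edgeR adjusted p = 0.668). Its 3 anti-PD1 values were the most even among the 5 segments that lay above all controls. Ighv5-4 had an edgeR adjusted p of 0.295 with 41.2 CPM in anti-PD1 3 and at most 0.508 in the other 2.

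A pair of segments had lower values in anti-PD1. Ighv1-75 stood at 37.4, 1.31 and 0.468 CPM in IgG and at 0, 0.0356 and 0.0412 in anti-PD1. The groups did not overlap, though most of the IgG signal was in library 1. With 719 counts against 2, IgG was 555-fold higher per library size, with 95% counting limits of 153 and 4592, and the log2 change was -8.62 ± 2.19 (edgeR adjusted p = 0.0992, and DESeq2 adjusted p = 1.94e-05). Ighv1-80 stood at 32.9, 0.138 and 0.159 CPM in IgG and at 0 in all 3 anti-PD1 libraries, at least 315-fold lower against 3 counts over the group (edgeR adjusted p = 0.283). Of its 613 IgG counts, 607 were from library 1. The other member lying below all controls was Ighv1-23, named here after its values were seen, with 24 counts in IgG and 4 in anti-PD1.

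Anti-B7-H3 against anti-PD1 compared the 2 treatments directly. Of the 62 members 0 passed, as did 0% of all genes, and the edgeR adjusted p of every member was 1.0. At an unadjusted p under 0.05 there were 8, or 12.9%, against 3.23% of all genes, and DESeq2 called 4, all higher in anti-B7-H3 (0.114% of all genes). Relative to the Ighv total, 5 members passed (0.212% of all genes). Negative log2 changes prevailed, with 19 of 62 positive, or 30.6% (53.8% of all genes). Their median was -0.71 over the 62 members, against 0.04 for all genes. With the filter rerun, the median ran from -1.42 over 69 members without anti-B7-H3 1 to -0.21 over 70 without anti-PD1 2. All anti-B7-H3 libraries were above all anti-PD1 libraries for 6 members, or 9.68% (7.11% of all genes), and below for 0 (6.4%).

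Ighv2-2 was the most even of these. It stood at 9.21, 33.4 and 8.57 CPM in anti-B7-H3 and at 0.655, 0.686 and 0.58 in anti-PD1, with 11.1, 1.38 and 0.635 in IgG. Every anti-B7-H3 library was more than 10 times every anti-PD1 library, and the log2 change was 4.70 ± 1.08 (edgeR adjusted p = 1.0, and DESeq2 adjusted p = 0.00206). Ighv4-1 was at 0.498, 1.64 and 0 CPM in anti-PD1, below all 3 anti-B7-H3 values given above (log2 change 7.17 ± 1.99, edgeR adjusted p = 1.0). Ighv1-75 stood at 2.16, 11.4 and 0.348 CPM in anti-B7-H3 and so above anti-PD1 (log2 change 7.26 ± 2.10, edgeR adjusted p = 1.0). Ighv1-80 stood at 2.32, 9.31 and 22.8 CPM in anti-B7-H3, at least 372-fold higher. In anti-B7-H3, Ighv1-80 lay within the range of IgG, and Ighv1-75 did so in libraries 1 and 2, while its value in anti-B7-H3 3 was below the lowest IgG value of 0.468 CPM. Ighv5-16, at 2.40, 0.204 and 0.507 CPM in anti-B7-H3, overlapped with anti-PD1 through anti-PD1 1 (log2 change -5.53 ± 1.73, edgeR adjusted p = 1.0). Without IgG 2 and anti-PD1 3, 0 of 70 members were called in each of the 3 comparisons, against 143, 234 and 0 of 13901 genes. At an unadjusted p under 0.05 there were 7, 14 and 7 of the 70 members, against 1006, 1381 and 427 of the 13901 genes.

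**Figure D5:**
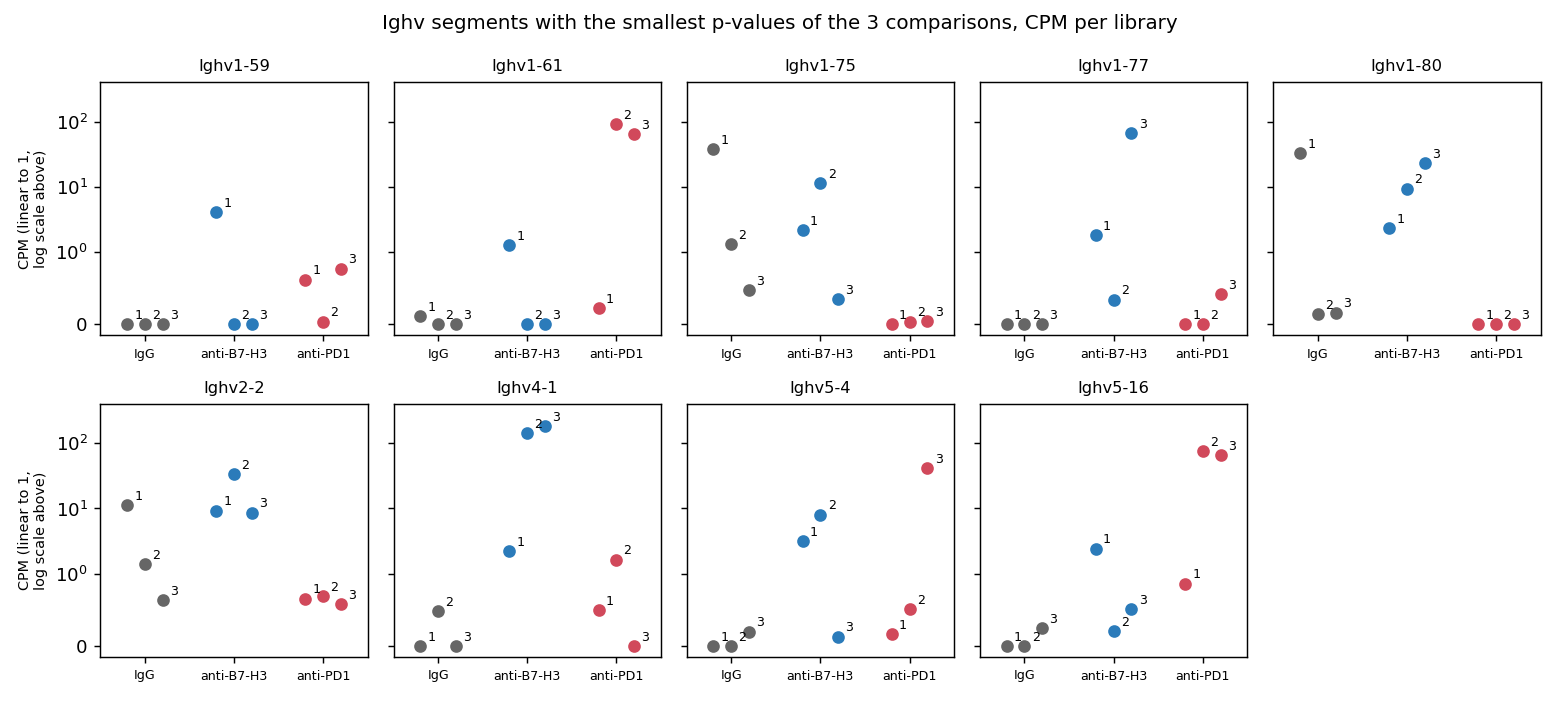
CPM per library (points, numbered by replicate; axis linear to 1 and logarithmic above) of the 9 segments that had one of the 4 smallest p-values in any of the 3 comparisons. In most panels the high group rests on 1 or 2 libraries; Ighv2-2 is the exception, with 3 anti-B7-H3 points between 8.57 and 33.4 CPM and 3 anti-PD1 points between 0.58 and 0.686.

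Close copies limit how surely counts can be assigned to a segment. The median identity of a member to its nearest other member was 94.9%, and 12 members had a copy at 98% or more. Ighv1-61 is 98.6% identical to Ighv1-52, with 61.9% of its windows of 50 bases shared with another member, and Ighv2-2 is 97.7% identical to Ighv2-4, with 55.8% shared, so their counts are uncertain. Ighv2-4, named here after its values were seen, had no count in IgG and anti-B7-H3 and stood at 14.8, 0.207 and 54.4 CPM in anti-PD1, where Ighv2-2 was low. Ighv4-1, Ighv5-16 and Ighv7-1, in contrast, share no such window with any member, as do 24 of the 113.

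The genes that cut, join and later mutate these segments did not pass the test. Of 10 V(D)J recombination genes 8 were tested and of 10 diversification genes 9, and 0 of either list was called by edgeR in any comparison. The recombination list had median log2 changes of -0.19 and -0.35 with anti-B7-H3 and anti-PD1 against IgG. Its member with the smallest p was Xrcc5, a DNA end-binding subunit, at 77.3, 81.2 and 66.4 CPM in IgG and 34.4, 36.9 and 52.3 in anti-PD1 (log2 change -0.76 ± 0.23, edgeR adjusted p = 0.193). Most of these genes act in DNA repair in all cells. The 3 octamer factors, which bind the promoters of Ighv segments, had 0 calls. Against IgG, 1 of the 3 had a positive log2 change with anti-B7-H3 (median -0.16) and 2 with anti-PD1 (median 0.47). The B cell coactivator among them, Pou2af1, stood at 9.09, 12.4 and 1.03 CPM in IgG, 15.04, 15.9 and 14.4 in anti-B7-H3 and 30.7, 18.2 and 16.2 in anti-PD1. It was above the controls in every treated library, at log2 changes of 1.17 ± 0.64 and 1.70 ± 0.65 (edgeR adjusted p = 0.682 and 0.353).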

How the data were processed

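RNA of CD45+ cells was measured in 9 libraries and deposited as 1 transcript table each. Per the file headers, each holds estimated counts (NumReads) and TPM. The build GRCm38 and the tool FastQC 0.11.8 are listed, per the submitters' processing notes, and the program that made the counts is not given in the sources used here. Per the labels' protocols, SMART-Seq v4, ribosomal RNA depletion and Nextera XT were used on at least 500 ng of RNA of integrity 7.0 or above; these kits do not mark strand.

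Of 58083 transcripts, 57409 were matched by ID to GENCODE M21 and summed to 22136 genes; the 674 unmatched held 0.236% to 0.547% of counts and stayed out. The deposited transcript lengths (278 to 394 bases for members, median 351) were taken as coding lengths. CPM used the library total as denominator; shares used the Ighv total. The deposited estimated counts, summed and rounded, went into edgeR 4.0.16 (R 4.3.3): filterByExpr by group, TMM, robust quasi-likelihood test, all 9 libraries in 1 fit, no covariate, Benjamini-Hochberg adjustment over all tested genes, threshold 0.05. The fit was tested on simulated data. Each SE of an edgeR log2 change is that change, without its sign, divided by the square root of the test's F statistic. It is thus not an estimate given by the model. Members, lists and tests were chosen with earlier results of these data known. Named segments were, by rule, the 4 tested segments with the smallest p per comparison and the 3 with the largest share per library, which gave 23; other genes named were the up to 3 of each list with the smallest p, and the 5 most like the Ighv total. The numbers in the labels are not stated to pair libraries; correlations of same-numbered deviations ran from -0.12 to 0.156 over 9 pairs, so no block was used. Alternatives were DESeq2 1.42.0, its size factors in edgeR, TMM without immunoglobulin genes, the Ighv total as library size, no filter, 5 CPM in 3 libraries, 6 libraries only, a replicate block, each library left out and, added after seeing the data, IgG 2 and anti-PD1 3 left out together and the Ighv total relative to plasma cell markers. Reads carried no molecular identifiers, so floors and intervals cover counting error only. Samples of the combination of antibodies that the design text mentions were not analysed here.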

Additional observations from a re-analysis of the deposited data

How the results depend on the processing

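The members called by edgeR, 0 in each comparison, were 5, 10 and 4 with DESeq2 (anti-B7-H3 against IgG, anti-PD1 against IgG, anti-B7-H3 against anti-PD1) and 2, 14 and 5 with the Ighv total as library size; the cause was not tested. All genes called, 112, 229 and 0, were 394, 660 and 15 with DESeq2 and 17, 9555 and 28 with the Ighv total as library size. With only the 6 libraries of the groups compared they were 44 and 136 against IgG. Leaving out 1 library gave 0 to 1 members for anti-PD1 against IgG and 0 in the other comparisons, and 59 to 144, 113 to 262 and 0 to 1 genes, with fewer samples in each fit; where this left 2 libraries in a group, the spread was pooled over all groups. With the replicate block, 1 and 2 members were called against IgG (Ighv1-77, then Ighv1-5 and Ighv2-9-1, named after their values were seen) and 64 and 127 genes. Of 9 same-numbered pairs 1 correlated above 0.1, and 2 of 18 checks matched a library best to its own number. No pairing by number was thus seen, but deviations from means of 3 libraries cannot exclude one. The other settings kept 0 members called.

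The log2 difference of the Ighv total kept its sign under all 13 alternatives per comparison. Relative to heavy chain constant genes it was 0.178, 0.255 and -0.0766; relative to the B cell markers, 0.0699, 2.05 and -1.98; relative to the plasma cell markers, chosen after seeing the data, 0.543, 0.871 and -0.329. Leaving out 1 library it ran from 0.45 to 1.46, 1.62 to 2.64 and -1.52 to -0.91. The effective number and the largest share moved by less than 1 SD under their 5 alternatives per group. The 51 members below the filter were not tested, and the size of difference that 3 libraries a group can show was not measured for single segments.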

Other observations

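The 2 segments that the rule left out are those typical of B-1 cells, a long-lived B cell class that makes natural IgM. Ighv11-2 stood at 304, 95.6 and 32.5 CPM in IgG, 424, 157 and 426 in anti-B7-H3 and 548, 194 and 884 in anti-PD1, and exceeded the leading member in 4 of the 9 libraries. Its log2 change with anti-PD1 against IgG was 2.05 ± 0.86 (edgeR adjusted p = 0.440). Ighv12-3 was at 0 in all 3 anti-B7-H3 libraries and highest in anti-PD1 2, at 81.0 CPM. With both added, the Ighv total was 746 ± 445, 1463 ± 334 and 3164 ± 729 CPM, in the order of the total without them. Of 7 B-1 cell markers, 0 were called by edgeR in any comparison. Against IgG, 2 of the 7 had a positive log2 change under B7-H3 blockade (median -0.19) and 5 under PD1 blockade (median 0.54). The summed level of the 7 overlapped between groups, at 1093 to 2147 CPM in IgG, 1126 to 1792 in anti-B7-H3 and 1295 to 2183 in anti-PD1. Whether B-1 cells supplied the Ighv11-2 RNA was not tested.

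Over the 9 libraries, the tested genes outside the immunoglobulin loci whose level was most like the Ighv total, by Pearson's r of log2(CPM + 1), were Mzb1 (0.988), Dnajb9 (0.987), Ets2 (0.969), Rgl1 (0.963) and Retnlg (0.961). Mzb1 and Dnajb9 encode chaperones of the endoplasmic reticulum, Ets2 a transcription factor and Retnlg a secreted protein known from neutrophils. Mzb1 stood at 29.5, 34.6 and 5.03 CPM in IgG, 38.2, 57.2 and 58.3 in anti-B7-H3 and 144, 114 and 73.8 in anti-PD1, with the same lowest and highest library as the Ighv total. These are the extremes of all tested genes, over libraries that fall into 3 groups, and are given as a description.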
